A study of Arabidopsis thaliana with 6 samples.

Results

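The genes described here are the Arabidopsis thaliana genes encoded by the chloroplast and the mitochondrion, and they were chosen as every gene of the deposited table with an ATCG or ATMG identifier and at least 10 counts summed over 6 libraries. There were 158 such genes among 32833 in the table: 96 of the 133 annotated on the chloroplast genome and 62 of the 152 annotated on the mitochondrial genome. A further 19 chloroplast and 24 mitochondrial genes had 1 to 9 counts, and 18 chloroplast and 66 mitochondrial genes had none. Just inside that limit, with 10 counts each, stood TRNH and TRNM of the chloroplast and ATP1, ORF107B and ORF105A of the mitochondrion. Just outside it, with 9 counts each, stood NDHB.1 of the chloroplast and ORF101A, ORF106E and ORF205 of the mitochondrion.

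RNA was sequenced from whole seedlings of 2 genotypes, 3 libraries each: Col-0, the wild type, and gi-2, a mutant allele of GIGANTEA (GI), a nuclear gene of the circadian clock and of the photoperiodic control of flowering. The seedlings were 7 d old, grew on MS plates in short days with no other treatment named, and were frozen at ZT 0, the moment of lights-on. Each library came from a pool of seedlings, which the series' design text calls a biological replicate. Nothing in the labels places the pools on separate days, and p-values reflect only how far these pools differ.

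Chloroplast genes are read by 2 kinds of RNA polymerase. The plastid-encoded polymerase (PEP) resembles the bacterial enzyme: its core subunits come from the chloroplast genome, and its sigma factors, which find promoters, and its associated proteins come from the nucleus. A nucleus-encoded phage-type polymerase transcribes others. Genes of the photosynthetic complexes are textbook targets of PEP, accD and the rpoB operon are textbook targets of the phage-type enzyme, and many housekeeping genes can be read by both. Mitochondrial genes are read by phage-type enzymes. The level of an organelle transcript depends strongly on RNA processing and decay, and organelle RNAs mostly lack the stable poly(A) tails of nuclear mRNA.

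A short stretch upstream of psbA, the gene of the D1 reaction-centre protein of photosystem II, holds boxes of the bacterial type of promoter that PEP reads. The same kind of stretch lies upstream of trnK, whose intron holds matK. Capitals mark a TTGACA box and the second box, TANNNT, 15 to 19 bases after it. Both are on the minus strand of the chloroplast sequence of RefSeq TAIR10.1, at Pt:1522-1567 for psbA and Pt:4450-4494 for trnK.
psbA: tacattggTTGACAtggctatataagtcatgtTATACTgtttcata
trnK: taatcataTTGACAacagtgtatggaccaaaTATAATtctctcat
The TTGACA box began 115 bases before the annotated psbA gene and 139 bases before trnK, with 18 and 17 bases between the boxes. Of the 250-base windows upstream of the 133 chloroplast genes, 7 (5.26%) held this pair of boxes on the gene's own strand and 10 (7.52%) on either strand. TTGACA alone lay in 17 windows (12.8%) on the gene's strand and in 26 (19.5%) on either. TATAAT alone, which overlaps TANNNT, lay in 30 (22.6%) and 49 (36.8%). The 7 genes with the pair were psbA, trnK, trnY, trnE, trnV.1 and both copies of ycf1, of which psbA alone is among the genes called below. The trnY and trnE matches are the same stretch, upstream of both genes. The ycf1 matches share their spacer length (16) and second box (TAGTCT). The 7 are thus not all separate sequences. The search used these exact letters, and a match is a description of the sequence, not evidence of use.

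A second set of sequences shows mitochondrial genes that share their sequence with the nuclear genome. RRN18, RRN26, cox1, cox2 and nad9 have no such copy by the search used here. Chromosome 2 of Arabidopsis carries a large insertion of mitochondrial DNA. The first bases of cob, the gene of the cytochrome b subunit of complex III, are shown from the mitochondrion (minus strand, 182769 to 182858) and from chromosome 2 (plus strand, 3450863 to 3450952). For matR, an intron maturase, a stretch around 1 difference, in capitals, is shown from the mitochondrion (plus strand, 231113 to 231173) and from chromosome 2 (minus strand, 3402613 to 3402673). These sequences were read from RefSeq TAIR10.1. Its mitochondrial record numbers bases differently from the deposited table, so these mitochondrial positions are not those of the table. Whether the reads were counted against this same mitochondrial sequence was not tested. Identity and differences between copies therefore hold for the RefSeq record.
cob, mitochondrion: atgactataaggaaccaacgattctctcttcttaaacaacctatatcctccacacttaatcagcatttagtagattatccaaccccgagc
cob, chromosome 2: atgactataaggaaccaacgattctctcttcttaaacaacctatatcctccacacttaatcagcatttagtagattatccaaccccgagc
matR, mitochondrion: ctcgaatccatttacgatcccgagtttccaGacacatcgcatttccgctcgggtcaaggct
matR, chromosome 2: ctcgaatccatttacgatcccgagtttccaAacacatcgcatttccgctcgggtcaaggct
The cob copies are identical over the whole gene, and cob had 0 counts in the 6 libraries together. The matR copies differ at 5 positions counted from the gene's first base (G55A, T229A, C241T, A731G and T962A, mitochondrion first), of which G55A is the one shown, and matR had 97 counts.

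Libraries held 18739317 to 23617717 counts, and 3 counts, the floor of detection used here, amounted to 0.126 to 0.166 CPM, counts relative to the TMM-scaled library size, as are all CPM values below. Counts of GI itself were 183, 210 and 139 in gi-2 and 68, 59 and 53 in Col-0. Between replicates, counts differed by more than sampling noise, with chi-square values of 4.96 to 15.6 for each degree of freedom, and every library stands for 1 sample. Over all 19699 genes tested with edgeR's quasi-likelihood test, 6413 (32.6%) were called at a Benjamini-Hochberg adjusted p under 0.05, with 3214 (16.3%) higher and 3199 (16.2%) lower in gi-2. At an unadjusted p under 0.05 there were 8189 (41.6%). For 8920 genes (45.3%) the CPM values of gi-2 and Col-0 did not overlap.

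Both organelles contributed a small share of the counts, and the mean share was lower in gi-2. In order of replicate number, chloroplast genes took 0.0937%, 0.0715% and 0.0786% of a gi-2 library and 0.103%, 0.101% and 0.0941% of a Col-0 library. The values did not overlap, but gi-2 replicate 1 and Col-0 replicate 3 lay next to each other, with exact 95% binomial intervals of 0.0924% to 0.0950% and 0.0928% to 0.0955%. Intervals and floors cover counting error only. The ratio of the means was 0.817 (SD of the ratio 0.120), or -0.29 on the log2 scale. Mitochondrial genes took 0.0434%, 0.0345% and 0.0384% in gi-2 and 0.0562%, 0.0470% and 0.0421% in Col-0. Here the genotypes overlapped, since gi-2 replicate 1 stood above Col-0 replicate 3, and the ratio of the means was 0.800 (SD 0.151). These sums were given no test. The sources do not give how RNA was selected before sequencing, so the shares are not those of the organelles in the cell. Levels and differences of organelle genes given below likewise describe only the RNA that was captured.

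**Figure D1:**
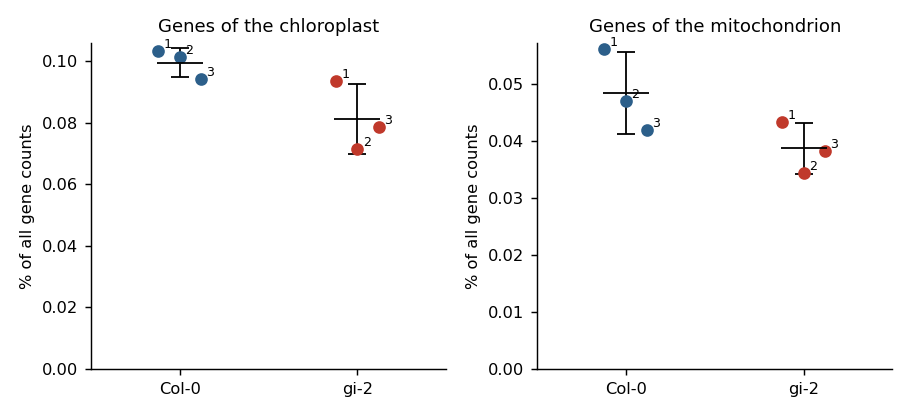
Share of all gene counts, in percent, that fell on chloroplast genes (left) and mitochondrial genes (right) in each library; points are libraries with their replicate number, horizontal bars the mean and whiskers ± SD of 3 libraries. Chloroplast shares ran from 0.0715% to 0.0937% in gi-2, below the 0.0941% to 0.103% of Col-0, while mitochondrial shares of the genotypes overlapped.

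Whole seedlings mix tissues with many and few chloroplasts, and in such samples fewer cells of a type and less RNA per cell cannot be told apart. Of 4 nuclear markers of green tissue, 3 were called lower in gi-2: RBCS1A, the Rubisco small subunit, with a log2 ratio (the fitted log2 fold change, gi-2 over Col-0) of -0.55, LHCB2.1, a light-harvesting protein, with -0.74, and PSAD1, a photosystem I subunit, with -0.47. The remaining marker, LHCA1, stood at -0.11 and was not called. The summed level of all 4 was 13093 to 15262 CPM in gi-2, below the 20135 to 21791 CPM of Col-0, and RBCS1A carried most of it. Of 5 root markers, CASP1 was called higher (0.56) and PYK10 and COBL9 lower (-0.72 and -0.69). The summed level of all 5 was 2316 to 2477 CPM in gi-2 against 3557 to 3991 CPM in Col-0, and PYK10 carried nearly all of it. Without PYK10 the other 4 summed to 151, 135 and 150 CPM in gi-2 and 130, 129 and 136 in Col-0, so the ranges overlapped. Of 7 seed storage genes, the 2 abundant enough to test, CRU3 and CRA1, were called higher, and the summed level was 18.96, 342 and 58.5 CPM in gi-2 and 0.720, 3.93 and 9.70 in Col-0. The gi-2 library with the highest summed level, replicate 2, had the lowest share of both organelles, but that sum rested on CRU3 and CRA1. CRU2 and the SESA genes, all low in counts, were instead highest in gi-2 replicate 1 (SESA1 had 32, 1 and 3 counts). Of the gi-2 libraries, replicate 1 had the highest share of both organelles. CRU3 was at 0 counts in 2 Col-0 libraries, and CRU2 and the SESA genes were at 0 in all of them. The part of tissue make-up in the organelle values was not tested.

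No chloroplast gene was called higher in gi-2 and 9 of the 81 tested were called lower (edgeR, adjusted p under 0.05), a share of 11.1% beside 16.2% of all genes called lower. The 9 were rbcL, psbA, psbD, psbE, psaA, ndhJ, matK, RRN23S.1 and RRN16S.2. DESeq2 and limma-voom called 0 higher and 10 lower each. At an unadjusted p under 0.05 in edgeR there were 1 higher and 14 lower, 15 of 81 beside 41.6% of all genes. The direction was mostly downward: 65 genes had a log2 ratio below 0 and 16 above, and the median was -0.25 (range -1.06 to 0.96), where over all genes tested 49.8% were below 0 and the median was 0.00. The chloroplast median was -0.40 without gi-2 replicate 1, -0.16 without gi-2 replicate 2, and -0.11 without both gi-2 replicate 2 and Col-0 replicate 1. That pair had the lowest gi-2 and the highest Col-0 share of each organelle. Leaving out the pair, here and below, therefore favours a smaller difference. All gi-2 libraries were below all Col-0 libraries for 18 genes and above for 2, so 24.7% did not overlap, less than the 45.3% over all genes. Errors were larger than usual, with a median SE of 0.28 beside 0.14 over all genes. The other 15 members were too low in counts to be tested, and none of these counts covers them.

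Relative to the other chloroplast genes, no gene was called in either direction. When library size was set to the chloroplast total, 82 genes were tested with 0 called, 11 had an unadjusted p under 0.05 (8 higher, 3 lower) and the median was 0.07. The 9 calls above were made with library sizes that nuclear transcripts set. They were adjusted over all 19699 genes tested, whereas this fit estimated variances and adjusted p over the 82 chloroplast genes alone. The 0 and the 9 therefore differ in more than scaling.

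**Figure D2:**
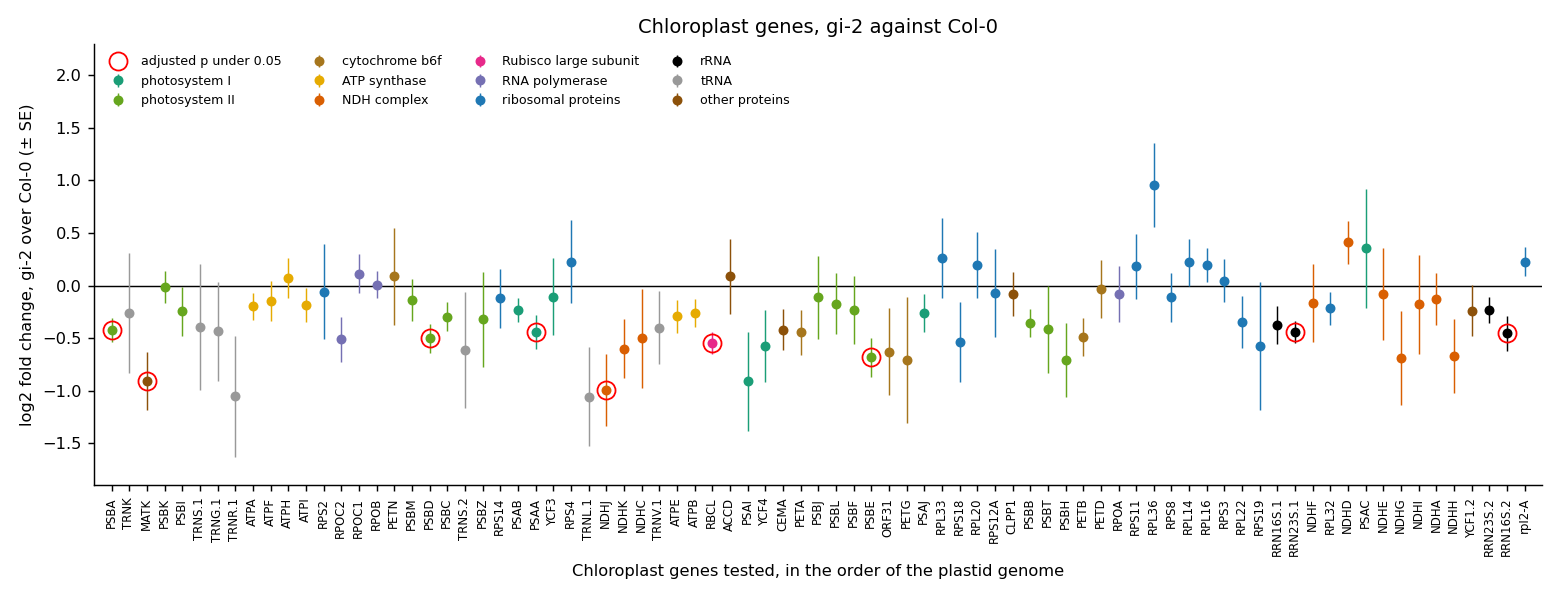
Log2 fold change, gi-2 over Col-0, of the 81 chloroplast genes tested, ordered by start on the plastid genome; whiskers are ± SE, colours mark functional groups and red circles the genes with an adjusted p under 0.05. Most points lie below 0, from -1.06 for TRNL.1 to 0.96 for RPL36, and the 9 circled genes are all lower in gi-2.

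The gene of the Rubisco large subunit, rbcL (RBCL, ATCG00490, chloroplast 54958 to 56397, plus strand), encodes the catalytic subunit of the carbon-fixing enzyme, whose small subunit comes from the nucleus. It had 2684, 2134 and 2160 counts in gi-2 and 2979, 3333 and 2732 in Col-0. As CPM these were 122, 89.3 and 108 in gi-2 and 165, 164 and 138 in Col-0, so each gi-2 library was below each Col-0 library. The means were 106 ± 16.3 and 156 ± 15.2 CPM (SD, n = 3 each), and the log2 ratio was -0.55 (SE 0.11; by edgeR, adjusted p = 0.00114). The call held in each alternative with whole-library scaling.

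Of the 15 photosystem II members, 14 were tested, all 14 were below 0 (median -0.31) and 3 were called lower. PsbA encodes the D1 protein, which is replaced continually in the light. The psbA gene (ATCG00020, chloroplast 383 to 1444, minus strand), whose upstream stretch is shown above, had 140, 102 and 104 CPM in gi-2 and 139, 155 and 168 in Col-0. Replicates 2 and 3 of gi-2 were low, and replicate 1 was level with the lowest Col-0 library. The means were 115 ± 21.5 and 154 ± 14.4 CPM, a log2 ratio of -0.42 (SE 0.11; by edgeR, adjusted p = 0.0102). Leaving out gi-2 replicate 2 ended the call (edgeR adjusted p = 0.0604), as did leaving out gi-2 replicate 3 (0.0569).

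The psbD gene (ATCG00270, chloroplast 32711 to 33772) encodes D2, the partner of D1 in the reaction centre, and overlaps psbC, so reads of the shared stretch cannot be assigned between them. It had 406, 340 and 303 counts in gi-2 and 469, 472 and 370 in Col-0. In CPM the genotypes did not overlap (18.4, 14.2 and 15.2 against 25.98, 23.2 and 18.7), though gi-2 replicate 1 and Col-0 replicate 3 were close. The log2 ratio was -0.50 (SE 0.14; by edgeR, adjusted p = 0.0128), and without gi-2 replicate 2 the adjusted p was 0.0634. For psbC, which encodes the CP43 antenna protein, the difference was -0.30 (adjusted p = 0.117).

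The psbE gene (ATCG00580, chloroplast 64071 to 64322) encodes a subunit of cytochrome b559. Its counts were 124, 117 and 85 in gi-2 and 147, 167 and 147 in Col-0. Every gi-2 library was below every Col-0 library in CPM, with means of 4.92 ± 0.69 and 7.92 ± 0.43. The log2 ratio was -0.68 (SE 0.18; by edgeR, adjusted p = 0.0103). Its neighbours psbF, psbL and psbJ, which are co-transcribed with it, had log2 ratios of -0.23, -0.17 and -0.11 and were not called, with 174 to 325 counts each beside 787 for psbE. Of the remaining photosystem II genes, psbB, the CP47 antenna protein, lay nearest the threshold at -0.36 (SE 0.13; adjusted p = 0.0554). psbK lay nearest 0, at 8.89 ± 0.46 CPM in gi-2 and 8.98 ± 0.34 in Col-0.

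All 7 photosystem I members were tested, 6 were below 0 (median -0.26) and psaA was called lower. The psaA and psaB genes encode the reaction-centre pair and stand next to each other, 39605 to 41857 and 37375 to 39579. The psaA counts were 983, 684 and 748 in gi-2 and 1126, 985 and 786 in Col-0. In CPM they were 44.6, 28.6 and 37.4 against 62.4, 48.4 and 39.7, so the genotypes overlapped and both varied widely. The log2 ratio was -0.44 (SE 0.16; by edgeR, adjusted p = 0.0484), and the call was lost without gi-2 replicate 2 (adjusted p = 0.205) or 3 (0.0986), and without Col-0 replicate 1 (0.161) or 2 (0.0836). The log2 ratio itself was -0.29 without gi-2 replicate 2, -0.27 without Col-0 replicate 1, and -0.10 without both. For psaB the difference was -0.23 (SE 0.12; adjusted p = 0.153), at 43.6 ± 6.6 CPM in gi-2 and 51.2 ± 6.7 in Col-0. It was called lower without gi-2 replicate 1 (-0.37, edgeR adjusted p = 0.0357) or without Col-0 replicate 3 (-0.34, 0.0387), and stood at -0.10 (0.564) without both gi-2 replicate 2 and Col-0 replicate 1. The only photosystem I gene above 0 was psaC, at 0.35 with an SE of 0.57.

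Of the genes of the electron carriers and the ATP synthase, none was called. The 6 cytochrome b6f members had a median of -0.47, with 5 below 0. petB, which encodes cytochrome b6, was nearest the threshold, with every gi-2 library below every Col-0 library. It stood at 6.60 ± 1.4 CPM in gi-2 and 9.29 ± 0.63 in Col-0, with a log2 ratio of -0.49 (SE 0.18; by edgeR, adjusted p = 0.0540). It passed the threshold with the replicate block (adjusted p = 0.0433), with upper-quartile factors (0.0485), under limma-voom (0.0428) and without gi-2 replicate 1 (0.0180). The 6 ATP synthase members had a median of -0.19, and atpB, the beta subunit of the catalytic head, stood at -0.26 (SE 0.13; adjusted p = 0.144), and was called at -0.39 without Col-0 replicate 3 (edgeR adjusted p = 0.0324).

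The chloroplast NDH complex carries electrons around photosystem I. Of its 11 members 10 were tested, 9 were below 0 (median -0.34) and ndhJ was called lower. The ndhJ gene (ATCG00420, chloroplast 48677 to 49153) had 33, 28 and 33 counts in gi-2 and 64, 65 and 37 in Col-0. Col-0 replicates 1 and 2 stood apart from the other 4 libraries, and in CPM Col-0 replicate 3, at 1.87, was just above the highest gi-2 value of 1.65. The log2 ratio was -0.99 (SE 0.34; by edgeR, adjusted p = 0.0382). It was lost in the fit with replicates as a block (adjusted p = 0.0657), under limma-voom (0.0511), and without any single library other than Col-0 replicate 3 (0.0606 to 0.122). Its neighbours ndhK and ndhC stood at -0.60 and -0.50, neither called. In the opposite direction, ndhD had 162, 122 and 142 counts in gi-2 and 86, 93 and 106 in Col-0, with a log2 ratio of 0.41 (SE 0.20; adjusted p = 0.145).

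The RNA polymerase and ribosomal protein genes had medians nearer 0 than the photosynthetic groups, and the difference between groups of genes was not tested. Of the 4 genes of the PEP core, 2 were above 0 and 2 below, with a median of -0.03. rpoB, the beta subunit, had 407, 457 and 313 counts in gi-2 and 347, 304 and 373 in Col-0. It stood at 17.8 ± 1.8 and 17.7 ± 2.4 CPM, a log2 ratio of 0.01 (SE 0.13; by edgeR, adjusted p = 0.969), whose sign changed with the scaling. rpoC1 stood at 0.11, rpoA at -0.08 and rpoC2 at -0.51 (SE 0.21; adjusted p = 0.0840), or -0.25 (adjusted p = 0.455) without both gi-2 replicate 2 and Col-0 replicate 1. All 3 gi-2 libraries were below all 3 Col-0 libraries for rpoC2 in CPM.

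Of 20 ribosomal protein members 17 were tested, with 9 above 0, 8 below, none called, and a median of 0.05. rpl36 (ATCG00760, chloroplast 79489 to 79602) had 32, 36 and 41 counts in gi-2 and 14, 22 and 14 in Col-0. Every gi-2 library was above every Col-0 library, at 1.67 ± 0.33 and 0.854 ± 0.20 CPM. Its log2 ratio of 0.96 (SE 0.40) was the highest of the 81 genes and did not pass the threshold (edgeR adjusted p = 0.0856). Rpl16 was the other gene with all gi-2 libraries higher, at 7.97 ± 0.25 CPM against 6.97 ± 0.46, a log2 ratio of 0.19 (adjusted p = 0.403). rpl32, which had the highest level per length of any chloroplast member, at 221 CPM per kb beside 127 for psbA and 91.0 for rbcL, had 33.4, 30.3 and 33.8 CPM in gi-2 and 50.9, 34.6 and 28.2 in Col-0. Col-0 thus spanned the gi-2 values for rpl32, and its difference of -0.22 was not called (adjusted p = 0.333).

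The ribosomal RNA genes lie in the inverted repeat, a stretch present in 2 identical copies, where a read cannot be assigned to 1 copy. All 4 genes were below 0 (median -0.41), and RRN23S.1 and RRN16S.2 were called lower, at -0.44 (SE 0.10; by edgeR, adjusted p = 0.00411) and -0.46 (SE 0.17; adjusted p = 0.0495). RRN16S.2 lost its call without any 1 of the 3 Col-0 libraries (adjusted p = 0.0509 to 0.160) or without gi-2 replicate 2 or 3 (0.187 and 0.119). With the copies summed, 16S rRNA had 415, 319 and 359 counts in gi-2 and 384, 465 and 447 in Col-0, with a log2 ratio of -0.41 (adjusted p = 0.0261). The summed 23S rRNA stood at -0.33 (adjusted p = 0.0231). In all, 37 chloroplast genes had a second copy covering at least 99% of their length, and only 8 of these are members. Of the 15 of them that encode proteins, 11 had under 10 counts.

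The copies shared counts evenly in some genes and not in others. RRN16S.1 and RRN16S.2 held 1209 and 1180 counts in all 6 libraries, and RRN23S.1 and RRN23S.2 held 3222 and 4059. The copies of rpl2, a protein of the large ribosomal subunit, held 14 (ATCG00830) and 1508 (ATCG01310). Single-copy values for these genes are therefore uncertain, and what set the division of reads between copies was not tested. Summed over its copies rpl2 stood at 0.21 (SE 0.14; adjusted p = 0.281).

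Of 15 tRNA members only 7 were tested. All 7 were below 0 (median -0.43) and none was called. The lowest, TRNL.1, had 7, 26 and 26 counts in gi-2 and 26, 42 and 42 in Col-0, with a log2 ratio of -1.06 (SE 0.47; by edgeR, adjusted p = 0.104). gi-2 replicate 1 was the low library there, and without it the log2 ratio was -0.66. Without both gi-2 replicate 2 and Col-0 replicate 1 it was -1.39 and passed the threshold (edgeR adjusted p = 0.0492).

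Among the remaining proteins matK was called lower. The matK gene (ATCG00040, chloroplast 2056 to 3636, minus strand) encodes an intron maturase. It lies within the intron of trnK, so their annotated spans overlap, and the stretch shown above lies upstream of trnK. It had 51, 46 and 34 counts in gi-2 and 59, 93 and 66 in Col-0. In CPM all gi-2 libraries were below all Col-0 libraries, at 1.98 ± 0.31 and 3.72 ± 0.73. The log2 ratio was -0.91 (SE 0.28; by edgeR, adjusted p = 0.0217), lost without gi-2 replicate 2 (adjusted p = 0.0621) or 3 (0.0757) or Col-0 replicate 2 (0.112). For trnK itself the difference was -0.26 with an SE of 0.57. accD, a subunit of acetyl-CoA carboxylase in fatty acid synthesis, had 49, 36 and 29 counts in gi-2 and 27, 40 and 28 in Col-0, with a log2 ratio of 0.09 (SE 0.36; adjusted p = 0.884) whose sign changed when some single libraries were left out.

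The make-up of the chloroplast counts was also compared, without reference to nuclear genes. rbcL made up 13.2%, 12.6% and 13.7% of the chloroplast counts in gi-2 and 15.4%, 16.3% and 14.7% in Col-0, and all gi-2 values were lower. Ribosomal protein genes made up 10.8%, 11.9% and 12.5% in gi-2 and 10.7%, 9.40% and 8.55% in Col-0. RNA polymerase genes made up 4.07%, 4.48% and 4.27% in gi-2 and 3.79%, 3.27% and 3.68% in Col-0. In both of these groups every gi-2 library was higher, by a narrow margin for the ribosomal proteins between gi-2 replicate 1 and Col-0 replicate 1. Photosystem II genes overlapped, at 26.4% to 28.9% in gi-2 against 25.9% to 31.8% in Col-0, and rRNA stood at 8.498% to 8.712% and 8.40% to 9.60%. psbA and rbcL together were 27.4% ± 0.865 in gi-2 and 30.9% ± 2.21 in Col-0. These shares sum to a whole, so 1 falling share raises the others, and they were given no test.

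**Figure D3:**
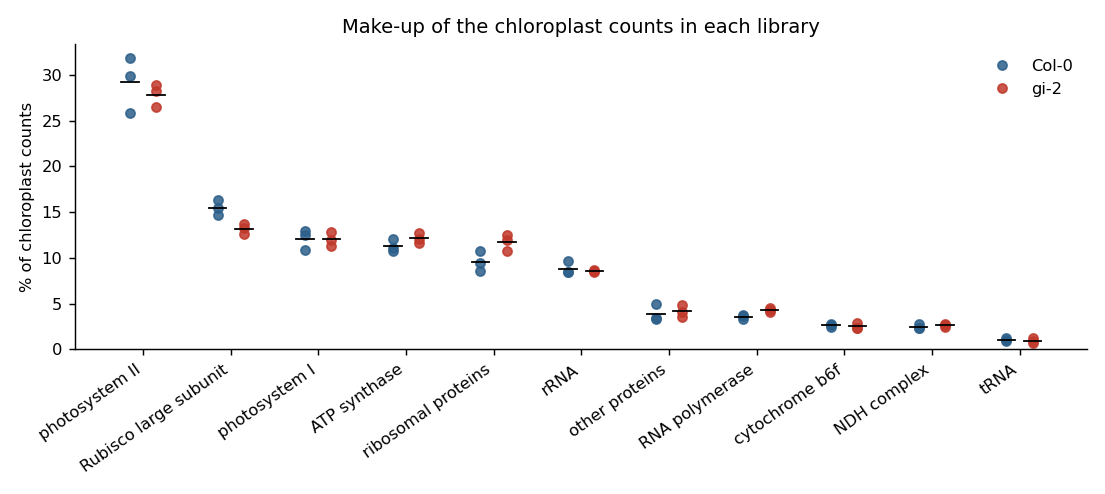
Share of the chloroplast counts, in percent, held by each functional group in each library, ordered by the Col-0 mean; points are libraries and short bars are means of 3. The shares of the Rubisco large subunit are lower in all gi-2 libraries, those of ribosomal proteins and RNA polymerase are higher in all of them, and those of photosystem II overlap.

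No mitochondrial gene was called higher in gi-2, and 2 of the 29 tested, RRN26 and ORF111D, were called lower (edgeR, adjusted p under 0.05), a share of 6.90% beside 16.2% of all genes. At an unadjusted p under 0.05 there were 3, all lower, beside 41.6% of all genes. Log2 fold changes were below 0 for 20 genes and above for 9, with a median of -0.22 and a median SE of 0.38. Without Col-0 replicate 1 the median was -0.07, and without both Col-0 replicate 1 and gi-2 replicate 2 it was 0.01. Its sign was thus not kept without both. These libraries had the highest Col-0 and the lowest gi-2 mitochondrial share, so leaving them out favours a smaller difference. The genotypes did not overlap for 4 genes (13.8%, beside 45.3% of all genes), of which 2 were lower and 2 higher in gi-2. Scaled to the mitochondrial total, in a fit and adjustment over mitochondrial genes alone, 0 genes were called. In that fit 2 had an unadjusted p under 0.05 and the median was 0.13. The other 33 members were too low in counts to be tested.

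Ribosomal RNA dominated the mitochondrial counts. RRN18 and RRN26, the RNAs of the small and large ribosomal subunit, held 84.5% ± 0.449 of them in gi-2 and 85.8% ± 0.860 in Col-0. RRN26 (ATMG00020, 8848 to 11415 in the table's mitochondrial coordinates) had 3848, 3311 and 3047 counts in gi-2 and 4311, 4087 and 3619 in Col-0. In CPM it stood at 175, 139 and 152 in gi-2 and 239, 201 and 183 in Col-0, with no overlap. The log2 ratio was -0.42 (SE 0.10; by edgeR, adjusted p = 0.00661). RRN18 (ATMG01390, 361350 to 363284) stood at 187, 150 and 171 CPM in gi-2 and 263, 204 and 173 in Col-0, where Col-0 replicate 3 fell within the gi-2 values. Its log2 ratio was -0.33 (SE 0.12; adjusted p = 0.0554), past the threshold in 5 alternatives, among them DESeq2 (adjusted p = 0.0270) and the fit without Col-0 replicate 3 (0.00666). RRN5 held only 14 counts.

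Unnamed open reading frames next to the rRNA genes were among the higher levels. By the annotation of the deposited table ORF107A lies 502 bases from RRN26. In the RefSeq record RRN26 is longer, at 3169 bases, and whether that longer gene reaches ORF107A was not tested. ORF107A stood at 49.8 CPM per kb, below RRN18 at 98.96 and RRN26 at 70.6. It had 14.9 ± 1.9 CPM in gi-2 against 17.4 ± 2.3 in Col-0, a difference of -0.22 on the log2 scale that was not called (adjusted p = 0.239). ORF111D ends 9 bases from RRN5, which lies 170 bases from RRN18. It had 36, 39 and 29 counts in gi-2 and 79, 66 and 35 in Col-0, with Col-0 replicate 3 close to gi-2. In CPM the genotypes did not overlap (1.63, 1.63 and 1.45 against 4.38, 3.24 and 1.77), and the log2 ratio was -0.98 (SE 0.35; by edgeR, adjusted p = 0.0444). The call was lost with replicates as a block (adjusted p = 0.0601), under limma-voom (0.0855) and without any single library other than Col-0 replicate 3 (0.0903 to 0.167).

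Genes of the respiratory chain were thinly covered, and none was called. cox1, the core of complex IV, had 81, 72 and 80 counts in gi-2 against 90, 50 and 87 in Col-0, or 3.56 ± 0.50 and 3.95 ± 1.3 CPM. Its log2 ratio was -0.15 (SE 0.28; by edgeR, adjusted p = 0.735). cox2 stood at -0.68 (SE 0.42; adjusted p = 0.244). Of 12 complex I members 7 were tested, 3 above 0 and 4 below, from -1.15 for NAD1B (SE 0.57; adjusted p = 0.140) to 0.33 for NAD9. The nad5 gene is annotated in pieces whose RNAs are joined by trans-splicing: NAD5A had 88 counts in all, NAD5C 109, and NAD5B, only 22 bases long, 45. For none of the pieces could a difference be seen at this depth. Of 4 ATP synthase members, atp1 had 10 counts and atp9 19, and the 2 tested stood at -0.55 for ORF25 (adjusted p = 0.347) and -0.08 for ATP6-2 (adjusted p = 0.895).

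Of 3 members in cytochrome c maturation, the 2 tested, CCB206 and CCB452, were above 0, at 0.38 (SE 0.29; by edgeR, adjusted p = 0.362) and 0.57 (SE 0.80; adjusted p = 0.629), and neither was called. CCB206 had 73, 59 and 45 counts in gi-2 and 36, 45 and 39 in Col-0, with no overlap in CPM. The 45 counts of gi-2 replicate 3 and of Col-0 replicate 2 are equal, so the order of those libraries rests on scaling. Of the mitochondrial counts, the group held 1.01%, 0.946% and 0.727% in gi-2 and 0.351%, 0.673% and 0.675% in Col-0. Col-0 replicate 1 was far below the other Col-0 libraries.

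Counts of mitochondrial protein genes were lowest where the RefSeq sequence of the gene has an identical nuclear copy. By symbol, 21 mitochondrial genes could be matched to the RefSeq record, and 13 of them were covered over at least 99% of their length by chromosome 2 sequence (at least 98% identity), between 3251856 and 3473692. For the 9 with an identical copy, counts over all 6 libraries ran from 0 to 40 with a median of 0. Cob, shown above, cox3, nad6, rpl5 and rps7 had 0 counts, atp1 10, rps4 18, atp9 19 and nad3 40. For the 4 whose copy differed, counts were 41 for nad4, 72 for rpl2, 97 for matR and 110 for nad7. The 5 protein genes without such a copy had more: 210 for rpl16, 217 for nad9, 221 for nad4L, 251 for cox2 and 460 for cox1. The groups did not overlap in these counts, which were not scaled for gene length. Gene spans differed widely, with 225 bases for atp9, 357 for nad3 and 1971 for matR. For their length, nad3 and atp9 held more counts than matR, so the order of these groups holds for raw counts only. How reads with several matches were counted is not stated in the labels, and a count of 0 for cob or cox3 does not show that its RNA was absent.

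Nuclear genes annotated on the copies held from 0 to 373 counts. AT2G07727, on the copy of cob, had 85, AT2G07687, on that of cox3, had 17, AT2G07698, on that of atp1, had 254 and AT2G07715, on that of rpl2, had 373. AT2G07718, on the copy of nad4, had 3, and AT2G07696 and AT2G07734, on those of rps7 and rps4, had 0. The 91 genes of chromosome 2 between those bounds held 2269 counts, and 44 of them held 0.

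**Figure D4:**
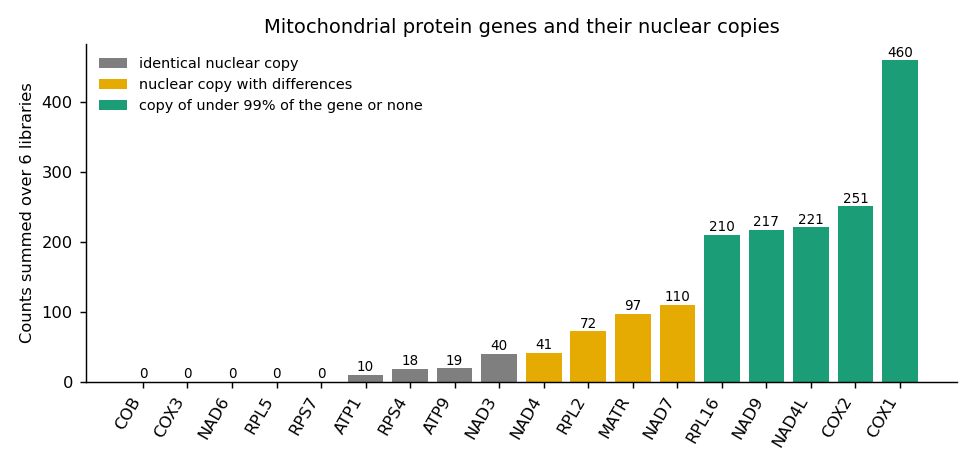
Counts summed over 6 libraries for 18 mitochondrial protein genes matched by symbol to the RefSeq record; grey bars mark genes with an identical nuclear copy, yellow bars genes whose nuclear copy differs, and green bars genes covered by nuclear sequence over less than 99% of their length. Grey bars reach 40 counts, yellow bars run from 41 to 110 and green bars from 210 to 460. Counts were not scaled for gene length, and copies were scored on the RefSeq sequence.

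Most nuclear genes of a list that serves organelle transcription and RNA turnover were called. All 26 were tested: 19 were lower in gi-2 and 2 higher, with a median log2 ratio of -0.52, beside 16.2% lower and 16.3% higher over all genes. The list was drawn up with earlier results of these data known. Of the 6 sigma factors of PEP, 4 were lower and 1 higher. SIG5, a sigma factor induced by light and stress that acts at psbD, had 595, 679 and 554 counts in gi-2 and 1404, 1670 and 1531 in Col-0. It stood at 27.7 ± 0.719 and 79.0 ± 2.55 CPM, with a wide gap between genotypes, and its log2 ratio was -1.51 (SE 0.08; by edgeR, adjusted p = 8.53e-09). SIG1, SIG2 and SIG6 stood at -0.53, -0.45 and -0.52 (adjusted p = 1.00e-04, 0.00424 and 1.69e-04). SIG4 rose, from 10.7 ± 4.43 CPM in Col-0 to 21.2 ± 2.63 in gi-2, by 0.98 (SE 0.23; adjusted p = 0.00447), and SIG3 stood at 0.16 (adjusted p = 0.201).

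Of the phage-type polymerases, RPOTp of the chloroplast fell from 26.2 ± 0.304 CPM in Col-0 to 11.4 ± 2.59 in gi-2, a log2 ratio of -1.21 (SE 0.14; by edgeR, adjusted p = 1.64e-05). RPOTm of the mitochondrion stood at -0.69 (SE 0.15; adjusted p = 0.00235). RPOTmp, which serves both organelles, stood at -0.51 (adjusted p = 0.0528) and passed the threshold in 6 alternatives, DESeq2 among them (0.0462). Without gi-2 replicates 2 or 3 its adjusted p was 0.147 and 0.153, and without Col-0 replicate 3 it stood at -0.32 (adjusted p = 0.245). Of 12 PEP-associated proteins 9 were lower, among them FLN1 at -1.09, PTAC12 at -1.06, PTAC10 at -0.93 and the thioredoxin TRXZ at -0.87, and PTAC6 was higher at 0.48 (adjusted p = 5.28e-04).

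Of 5 genes of organelle RNA decay and processing, 4 were lower. CSP41B, an RNA-binding protein of chloroplasts, stood at 159 ± 12.3 CPM in gi-2 and 362 ± 24.1 in Col-0, with a log2 ratio of -1.19 (SE 0.08; by edgeR, adjusted p = 1.13e-07), and its partner CSP41A at -0.53. The polynucleotide phosphorylases stood at -0.37 for PNP1 of the chloroplast and -1.04 for PNP2 of the mitochondrion, and the exoribonuclease RNR1 at 0.06 (adjusted p = 0.562). The green tissue markers given above moved in the same direction as most of these genes. Tissue make-up as a source of these differences was not tested.

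**Figure D5:**
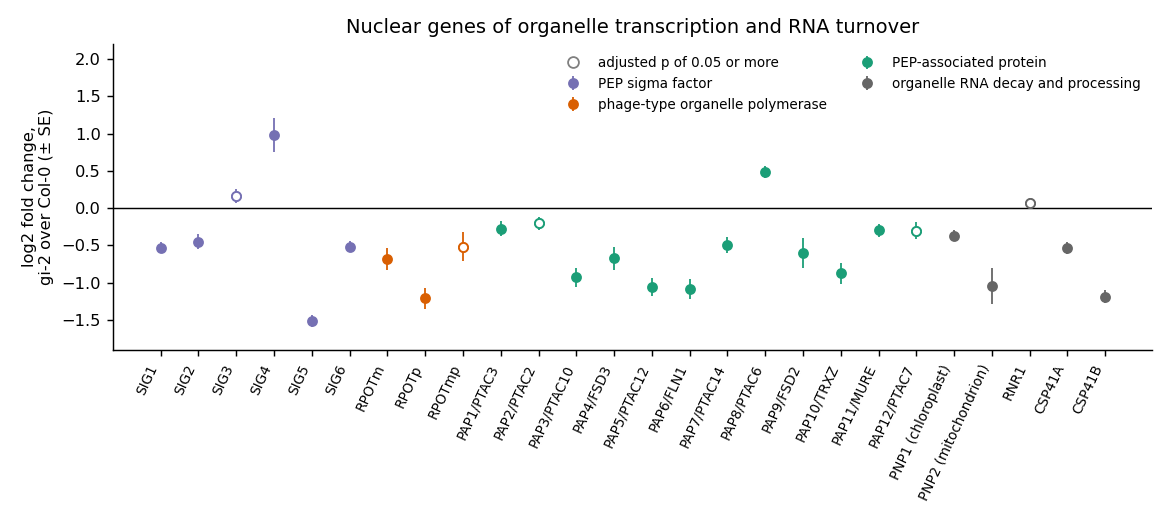
Log2 fold change, gi-2 over Col-0, of 26 nuclear genes of organelle transcription and RNA turnover, coloured by list; whiskers are ± SE and open symbols mark genes with an adjusted p of 0.05 or more. Values run from -1.51 for SIG5 to 0.98 for SIG4, and 19 genes are lower in gi-2 past the threshold.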

How the data were processed

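The table that the authors deposited holds raw counts, as whole numbers that carry no normalization. The submitters' processing notes list STAR 2.5.5, HTSeq 0.6.1, DESeq2 and TAIR10. The libraries were non-directional, per the labels' protocols, so reads of overlapping genes and of opposite strands cannot be told apart. How reads with several matches were treated, and how RNA was selected, is not given in the sources. The table had 0 entries that name no gene.

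From these counts, edgeR 4.0.16 in R 4.3.3 was run on all 6 libraries with genotype as the only term: TMM scaling, filterByExpr (minimum count 10, minimum total 15), the quasi-likelihood F test, and Benjamini-Hochberg adjustment over all genes tested, called under 0.05. CPM used TMM-scaled library sizes (mean ± SD over 3 libraries), and an SE was derived from the F statistic. The procedure was tested on simulated data. Alternatives used DESeq2 1.42.0, limma-voom (limma 3.58.1), other scalings and filters, a replicate block, and libraries left out. Copies of genes were sought in RefSeq TAIR10.1 with blastn 2.17.0 (at least 98% identity over 60 bases). Chloroplast coordinates of the table were used on that record unchanged. Most matched a RefSeq gene in start and end, but for some, matK and RRN16S.2 among them, no such match was found.

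The genes, the functional groups and the nuclear lists were chosen with earlier results of these data known. Named genes were, for each genome, those called, the 5 most abundant, the member of each functional group with the smallest adjusted p, and psbA, psbD, psaA, rbcL, rpoB, accD, cox1, cob, atp1 and the nad5 pieces. Of the nuclear lists they were up to 8 with the smallest adjusted p, the sigma factors and the RPOT genes. Others, such as rpl32, ndhD and genes neighbouring a called gene, were added after their values were seen. So were the names petL for ORF31 and rps12 for RPSL2 in the grouping.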

Additional observations from a re-analysis of the deposited data

How the results depend on the processing

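Counts of genes called lower moved by over 1.5 times under 4 of 16 alternatives for the chloroplast and 8 of 16 for the mitochondrion. Chloroplast genes lower in gi-2 numbered 9, and 3 (without gi-2 replicate 2) to 13 (without gi-2 replicate 1) with 1 library left out, 4 without gi-2 replicate 3 and 5 without Col-0 replicate 2. Mitochondrial genes lower numbered 2, and 1 to 3 with 1 library left out, the 3 arising without Col-0 replicate 3. They numbered 1 under limma-voom and 1 without both gi-2 replicate 2 and Col-0 replicate 1, where chloroplast genes numbered 7. Scaled within the genome, with the fit and adjustment over the genes of that genome alone, 0 were called in either. Without 1 library the chloroplast share ratio ran from 0.754 to 0.866 and the mitochondrial one from 0.751 to 0.870, and without both libraries they were 0.882 and 0.918 (this alternative of the ratios, and the summing of repeat copies, were added after the data were seen). That pair had the lowest gi-2 and the highest Col-0 shares, so leaving it out favours ratios nearer 1. The causes were not tested, and the fits with libraries left out also have fewer libraries.

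Replicate numbers did not pair the libraries: same-numbered libraries correlated in their deviations at 0.00207, 0.0145 and 0.0156. With the replicate block, 9 chloroplast and 2 mitochondrial genes were lower, but not the same ones: NDHJ (adjusted p = 0.0657) and ORF111D (0.0601) lost their calls, and PETB (0.0433) and RRN18 (0.0251) gained one. Over all genes, 3123 were higher and 3038 lower.

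Scaling within the genome moved the median of all chloroplast genes from -0.25 to 0.07 and of all mitochondrial genes from -0.22 to 0.13. The 7 named genes that changed sign under it did so with that shift: PSAB stood at 0.0873, ATPB at 0.0686, ORF107A at 0.118, ATMG00090 at 0.0117, mitochondrial RPL2 at 0.0744, COX1 at 0.198 and RRN18 at 0.0238. Under the other alternatives, signs changed in 14 instances, none of them a call. With 1 library left out, RPOB ran from -0.108 to 0.0839, ACCD from -0.141 to 0.238, NAD5C from -0.856 to 0.596, NAD5A from -0.333 to 0.484 and COX1 from -0.406 to 0.0477. RPOB was -0.00214 with upper-quartile factors. Without both libraries NAD5C stood at 0.611, NAD5A at -0.0185 and COX1 at 0.164. Median SEs were 0.28 for chloroplast and 0.38 for mitochondrial genes, beside 0.14 over all genes, and without both libraries the log2 ratios of PSBD and RRN26 were -0.32 and -0.23.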
